A study of Mus musculus with 4 samples.

Results

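Primitive endoderm is the layer of the blastocyst that lies next to the epiblast and gives rise to the visceral and parietal endoderm of the yolk sacs. Its genes were examined as 10 members chosen by name: the transcription factors Gata4, Gata6, Sox7, Sox17, Foxa2 and Hnf4a, the clathrin adaptor Dab2, the growth factor receptor Pdgfra, and the receptor subunits Amn and Cubn. All 10 symbols were found among the 22138 genes of the table. They filled 11 rows, because Dab2 was listed under 2 identifiers, of which the one listed at 0 in all libraries (ENSMUSG00000079102) was set aside.

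RNA was sequenced from TT2 cells, a line of female mouse embryonic stem cells (C57BL/6xCBA) kept feeder-free in serum and LIF, which blocks differentiation. The control group (n = 2 libraries) received control siRNA and the other group (n = 2 libraries) siRNA against Hnrnpk, whose product hnRNP K is a poly(C)-binding protein that acts on RNA and on chromatin. Both groups were transfected at 100 nM and again 24 hours later at 50 nM, and were harvested about 72 hours after that. The series is on the silencing of genes by hnRNP K together with the histone H3 lysine 9 methyltransferase SETDB1, and the comparison asks which transcripts changed when Hnrnpk was depleted. All cells are of 1 line, the design text calls the libraries biological replicates, and no source used here says whether they came from separate cultures. The p-values therefore rest on the spread between these libraries, with variances pooled over genes.

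In the inner cell mass, cells take either the epiblast fate, held by NANOG, or the primitive endoderm fate, held by GATA6, and FGF4 signalling through ERK favours the latter. GATA6 stands at the top of a relay in which PDGFRA, SOX17, GATA4 and SOX7 appear in turn, and FOXA2 and HNF4A act later in the visceral endoderm. DAB2 sorts cargo and orders the epithelium of the layer, and amnionless carries cubilin to the surface of absorptive cells. Embryonic stem cells correspond to epiblast, so these genes are normally low in such cultures.

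Values are RPKM, reads scaled to transcript length and library size. In the Hnrnpk siRNA libraries 5 primitive endoderm genes rose: Gata6 by the most, then Sox7 and Dab2, then Pdgfra and Gata4. Amn stood at the same level in both groups. Sox17, Foxa2, Cubn and Hnf4a were higher in both Hnrnpk siRNA libraries than in either control library, but lay below the level set for the test. That level was a mean of 0.5 RPKM over the 4 libraries, and 6 of the 10 genes reached it. Pdgfra reached it only through the Hnrnpk siRNA libraries, so it had to differ to be tested. A gene was called where limma, a linear model with variances pooled over genes and fitted to log2(RPKM + 0.5), gave an adjusted p below 0.05. By that test 67.2% of the 12486 genes tested were called, 32.2% as higher and 35.0% as lower, so a call alone was common. A rise of at least 2-fold (a log2 change of 1 or more) was seen in 12.4% of the genes called higher, and in 4 of the 5 here, Gata6, Sox7, Dab2 and Pdgfra.

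The libraries were of like depth by estimate: the step that 1 read is worth in low genes put the others at 0.882 to 0.982 of control replicate 1. That estimate rests on 16 to 19 genes per library and on GENCODE M21 lengths, which may differ from those behind the RPKM. Values above 0 were listed for 17566 to 18077 genes. Hnrnpk itself measured 236 and 226 RPKM under control siRNA against 68.0 and 70.5 RPKM under Hnrnpk siRNA, in the direction of the labels. Embryonic stem cell markers were high in every library, with Pou5f1 at 245 to 301 RPKM. The labels name both removal of ribosomal RNA and selection of poly(A) RNA for these libraries.

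**Figure D1:**
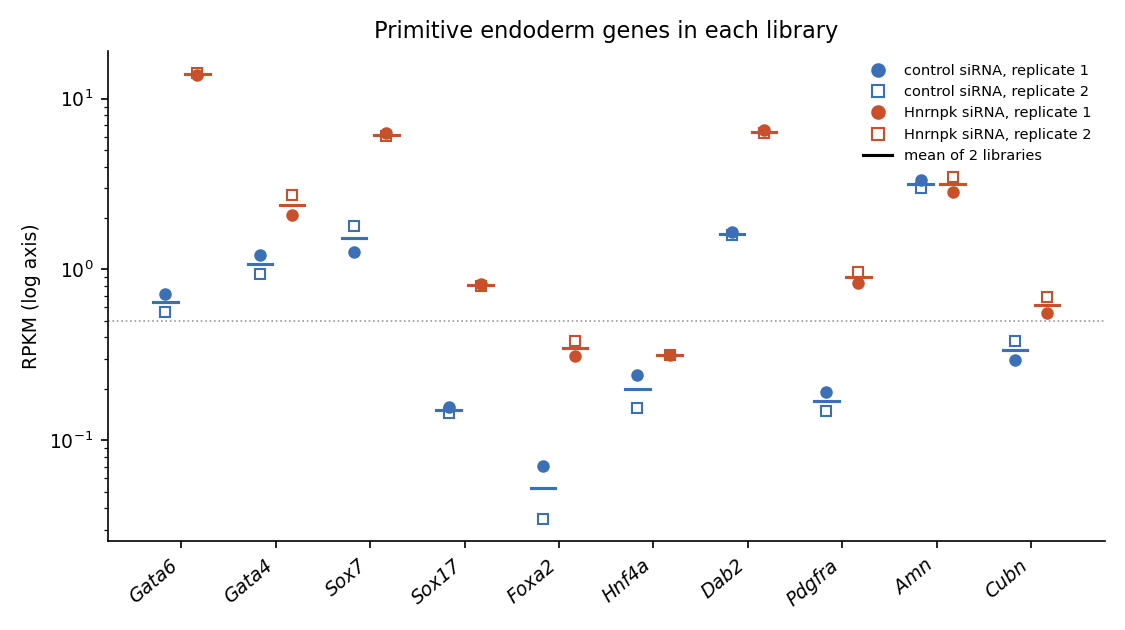
RPKM on a log axis of the 10 primitive endoderm genes in each library, with control siRNA in blue and Hnrnpk siRNA in red; circles are replicate 1, squares replicate 2, bars the mean of 2 libraries, and the dotted line marks 0.5 RPKM. The groups are apart in 9 genes, from Gata6 (0.643 against 13.9 RPKM) to Hnf4a (0.199 against 0.316 RPKM), and overlap in Amn.

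Gata6 (ENSMUSG00000005836, GRCm38 chromosome 18, 11052064 to 11085635, plus strand), the GATA factor that starts the primitive endoderm programme, measured 0.721 and 0.565 RPKM under control siRNA against 13.7 and 14.1 RPKM under Hnrnpk siRNA. Every control value lay far below both others, and the replicates of each group were close. The means were 0.643 ± 0.110 and 13.9 ± 0.319 RPKM (SD, n = 2 each), a ratio of 21.6, and Gata6 rose by 3.66 on the log2 scale (SE 0.0928, limma adjusted p = 2.04e-08). Among genes listed above 0, Gata6 moved from the percentiles 31.2 and 32.2 in the control libraries to 72.3 and 72.6 after Hnrnpk siRNA. It thus went from the lower part of the genes listed above 0 to a level above most of them.

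Gata4 (ENSMUSG00000021944, chromosome 14, 63198922 to 63271692, minus strand), a related factor that follows GATA6 in the embryo, measured 1.21 and 0.938 RPKM under control siRNA against 2.08 and 2.71 RPKM under Hnrnpk siRNA. The groups did not overlap, but the gap was small beside that of Gata6. Its log2 change was 0.87 (SE 0.128, limma adjusted p = 0.000226), with a 95% interval of 0.59 to 1.16 against 3.45 to 3.87 for Gata6. The ratio of Gata6 to Gata4 RPKM was 0.594 and 0.602 in the control libraries and 6.59 and 5.21 after Hnrnpk siRNA. Gata4 was therefore the more abundant of the pair per length under control siRNA, and Gata6 under Hnrnpk siRNA.

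Sox7 (ENSMUSG00000063060, chromosome 14, 63943673 to 63950732, plus strand), a SOXF factor of extraembryonic endoderm and endothelium, measured 1.26 and 1.79 RPKM under control siRNA against 6.29 and 6.01 RPKM under Hnrnpk siRNA. The control libraries differed from each other more than the Hnrnpk siRNA libraries did, and both were well below them. Sox7 rose by 1.73 on the log2 scale (SE 0.120, limma adjusted p = 2.24e-06). Its paralog Sox17 (ENSMUSG00000025902, chromosome 1, 4490931 to 4497354, minus strand), needed for endoderm of both embryonic and extraembryonic origin, was listed at 0.157 and 0.144 RPKM and at 0.821 and 0.805 RPKM in the same order. The ratio of the Sox17 means, 5.39, was not smaller than that of Sox7, 4.04, at a level several times lower. With a mean of 0.482 RPKM over the libraries Sox17 just missed the test. Without a filter on low values it was called (log2 change 1.01, SE 0.0430, limma adjusted p = 0.000679).

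Foxa2 (ENSMUSG00000037025, chromosome 2, 148042877 to 148046969, minus strand), a forkhead factor of visceral and definitive endoderm, measured 0.0710 and 0.0346 RPKM under control siRNA against 0.311 and 0.383 RPKM under Hnrnpk siRNA. These are low values in all libraries: by the depth estimate above they correspond to about 20.9, 10, 81.5 and 99.4 reads or read pairs in the 4 libraries. The ratio of means was 6.57. Without a filter Foxa2 was called (log2 change 0.61, SE 0.0571, limma adjusted p = 0.00195), and with 0.1 RPKM added in place of 0.5 RPKM its log2 change was 1.55.

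Hnf4a (ENSMUSG00000017950, chromosome 2, 163506808 to 163572910, plus strand), the nuclear receptor that drives secreted protein genes in visceral endoderm and liver, was listed at 0.242 and 0.155 RPKM and at 0.316 and 0.316 RPKM. The gap between the groups was smaller than the distance between the control libraries. Without a filter the change was 0.23 (SE 0.0667, limma adjusted p = 0.0445), and it was no longer called when 0.1 RPKM was added instead (adjusted p = 0.0581). Of the 6 factors, Gata6 was the most abundant after Hnrnpk siRNA and Hnf4a the least, although the replicate ranges of Hnf4a and Foxa2 overlapped.

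**Figure D2:**
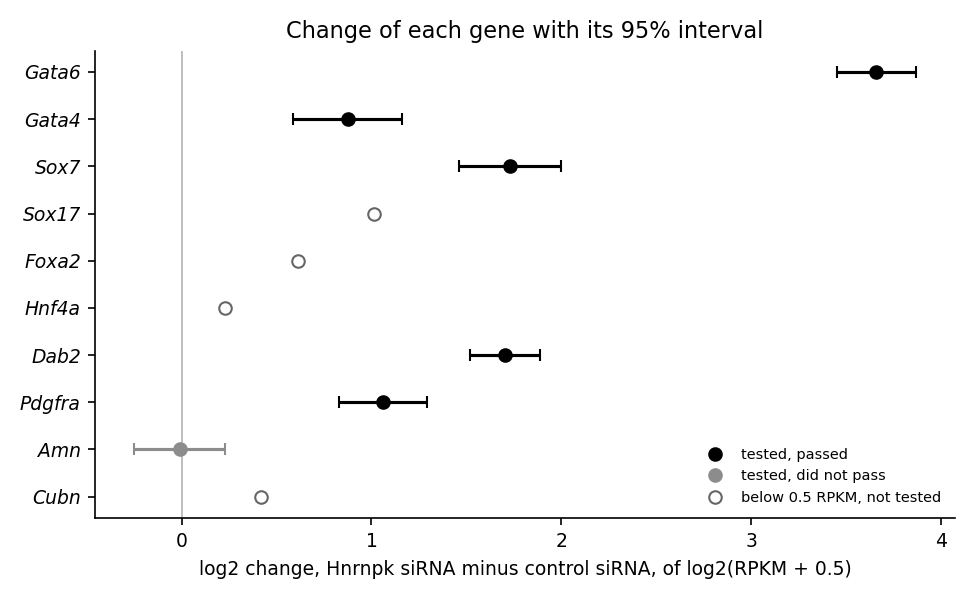
Log2 change of each gene, Hnrnpk siRNA minus control siRNA, on the log2(RPKM + 0.5) scale; black points passed the test, the grey point did not, bars are 95% intervals from limma, and open points lay below 0.5 RPKM and were not tested. Gata6 stands alone at 3.66, Sox7 and Dab2 lie close together at 1.73 and 1.70, and the interval of Amn spans 0.

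Dab2 (ENSMUSG00000022150, chromosome 15, 6299788 to 6440712, plus strand), the endocytic adaptor, measured 1.66 and 1.59 RPKM under control siRNA against 6.55 and 6.29 RPKM under Hnrnpk siRNA. Replicates agreed closely in both groups, and the groups were far apart. Its log2 change was 1.70 (SE 0.0826, limma adjusted p = 3.0e-07), a ratio of means of 3.95. Its level did not separate from that of Sox7 in either group: the replicate ranges of both genes overlapped.

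Pdgfra (ENSMUSG00000029231, chromosome 5, 75152292 to 75198215, plus strand), the receptor that marks primitive endoderm precursors, measured 0.191 and 0.148 RPKM under control siRNA against 0.835 and 0.961 RPKM under Hnrnpk siRNA. Both control values lay below both others. The ratio of means was 5.29, and Pdgfra rose by 1.06 on the log2 scale (SE 0.103, limma adjusted p = 1.62e-05). At this level the added constant matters: the log2 change was 1.89 with 0.1 RPKM added and 0.70 with 1 RPKM added, called in both cases.

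Amn (ENSMUSG00000021278, chromosome 12, 111271095 to 111276426, plus strand), the membrane subunit of the cubilin receptor, measured 3.36 and 2.98 RPKM under control siRNA against 2.83 and 3.48 RPKM under Hnrnpk siRNA. The groups overlapped, and the log2 change was -0.0099 (limma adjusted p = 0.940) with a 95% interval of -0.25 to 0.23. Under control siRNA Amn was the highest of the 10 genes, and under Hnrnpk siRNA it ranked below Gata6, Dab2 and Sox7. Its partner Cubn (ENSMUSG00000026726, chromosome 2, 13276338 to 13491813, minus strand), the large ligand-binding subunit, was listed at 0.294 and 0.383 RPKM and at 0.553 and 0.687 RPKM. Those ranges did not overlap, with a ratio of means of 1.83. Cubn was called without a filter on low values (log2 change 0.42, SE 0.0880, limma adjusted p = 0.0172). Per length, Amn exceeded Cubn 11.4- and 7.79-fold in the control libraries and 5.12- and 5.07-fold after Hnrnpk siRNA.

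Read without the filter, the lower Hnrnpk siRNA library exceeded the higher control library in 9 of the 10 genes, where 39.0% of the 18814 genes with any value above 0 did so. Tested without the filter, 9 of the 10 were called higher, where 25.3% of those 18814 genes were. The ratio of mean RPKM was at least 2 in 7 of the 10 (Gata6, Foxa2, Sox17, Pdgfra, Sox7, Dab2 and Gata4), where 11.9% of genes above 0 in the control libraries had such a ratio. The 10 genes were chosen with earlier results of these data known, so these shares describe them and do not test the set. Summed over the 10 genes, RPKM was 9.17 and 8.73 in the control libraries and 34.3 and 35.8 after Hnrnpk siRNA. Gata6 alone was 13.7 and 14.1 RPKM of the latter sums. In bulk RNA, more cells that express a gene and more RNA per cell cannot be told apart, and this holds for every rise given here.

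**Figure D3:**
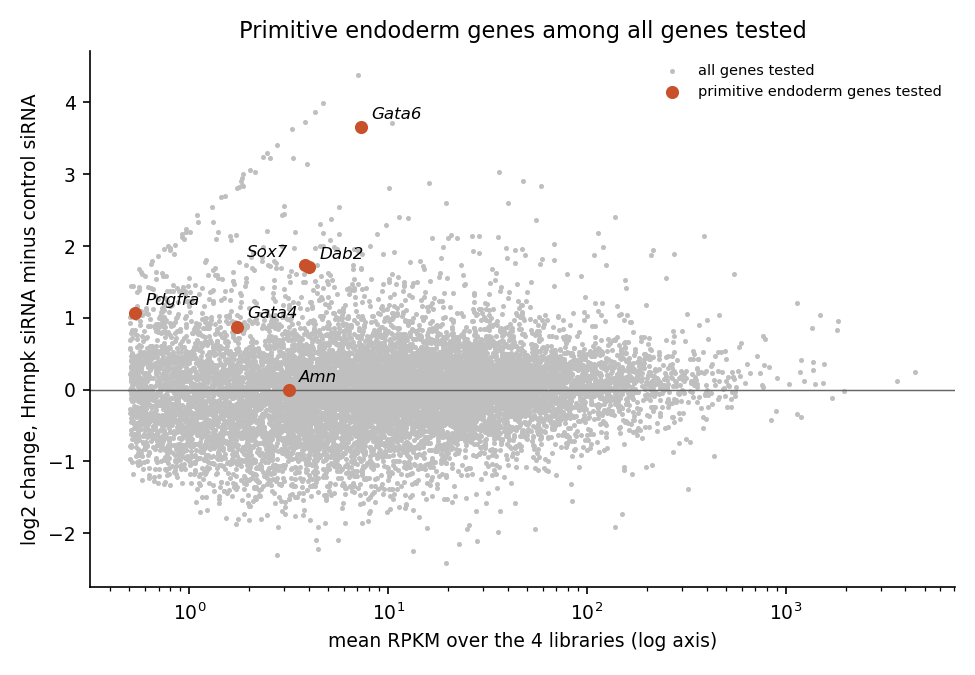
Log2 change against mean RPKM over the 4 libraries (log axis) for all 12486 genes tested (grey) and the 6 primitive endoderm genes among them (red). Gata6 lies near the upper edge of the cloud, Sox7, Dab2, Pdgfra and Gata4 in its upper part, and Amn on the line of no change.

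Some of these genes overlap others, and no source used here gives the strand setting of the counting. Sox17 shares 804 exonic bases, 16.8% of its exonic length in GENCODE M21, with the opposite-strand transcript Gm37587, so its value may hold reads of that transcript. The shares for Cubn, Dab2, Gata6 and Pdgfra with opposite-strand genes were 1.43% to 4.55% for any 1 neighbour. Apart from these stretches in Sox17 and Cubn, the longest coding transcript of none of the 10 genes had a match of 100 bases or longer in another gene at 95% identity.

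The sequence before the start sites was read for 6 of the 10 genes, those found in the RefSeq promoter table (Amn, Cubn, Dab2, Foxa2, Hnf4a and Pdgfra, with 10 starts between them). The 250 bases before the start are shown for Dab2 and Pdgfra, which rose, and for Amn, which was level, so that the windows can be set side by side. All are from GRCm38.p6 and read 5′ to 3′ on the strand of the gene. None holds capitals, since none of the exact strings searched, given below, was found there.
Dab2, chr15:6299539-6299788, plus strand: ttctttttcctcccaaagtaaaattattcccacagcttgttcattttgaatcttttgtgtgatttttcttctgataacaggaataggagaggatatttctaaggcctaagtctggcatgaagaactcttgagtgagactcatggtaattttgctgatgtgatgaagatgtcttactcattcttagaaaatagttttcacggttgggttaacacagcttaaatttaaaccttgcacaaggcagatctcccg
Pdgfra, chr5:75152001-75152250, plus strand: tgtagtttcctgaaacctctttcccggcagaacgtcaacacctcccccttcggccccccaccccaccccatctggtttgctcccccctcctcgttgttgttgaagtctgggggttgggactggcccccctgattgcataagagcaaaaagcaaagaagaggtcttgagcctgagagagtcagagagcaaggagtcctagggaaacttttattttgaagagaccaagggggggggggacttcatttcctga
Amn, chr12:111270846-111271095, plus strand: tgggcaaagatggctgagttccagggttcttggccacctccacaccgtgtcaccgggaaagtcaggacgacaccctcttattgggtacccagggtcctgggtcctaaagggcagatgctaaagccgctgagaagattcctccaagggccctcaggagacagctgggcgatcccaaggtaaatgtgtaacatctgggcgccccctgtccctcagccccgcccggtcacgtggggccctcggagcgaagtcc

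The 3 windows differ in composition. The Dab2 window has 36.8% G and C with 2 CG pairs, that of Pdgfra 54.4% with 4 and that of Amn 61.2% with 11, where the medians over all promoters of the table are 52.4% and 6. A further Dab2 start, inside the gene, has 60.0% G and C with 17 CG pairs, and the deposited values do not say which start was used. Motifs of the factor families among the 10 genes were searched on both strands: AGATAA of the GATA family, then AACAAT of SOX factors, then TGTTTAC of forkhead factors, and CAAAGTCCA of HNF4 factors. Only these exact strings were searched, so other forms were not counted, such as the tgataa in the Dab2 window shown above. The string AGATAA was found at 2 of the 10 starts, where 9.99% of 32851 promoters hold it, and the others at none (9.42%, 3.17% and 0.384% of all promoters). The matches, which do not overlap another motif, are in Hnf4a and at an internal start of Foxa2. That in Hnf4a lies before the RefSeq start but spans the GENCODE start of the gene, 163506808. Both are shown here with the motif in capitals.
Hnf4a, chr2:163506793-163506822, plus strand: gaagaatcaataAGATAAccgggcggggtg
Foxa2, chr2:148045630-148045659, minus strand: ctgttagccttgAGATAAtattaactttgt
A match is a run of letters and was not measured as a binding site here; Hnf4a and Foxa2 were the lowest of the 10 genes after Hnrnpk siRNA.

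Paralogs and binding partners were then read from a list of 20 genes, of which 16 were tested, 9 rose and 4 fell (median log2 change 0.46, against -0.015 over all genes tested). Among all genes tested, 32.2% were called higher and 35.0% lower. Members of the same families went different ways. Among GATA factors, Gata3 rose from 0.575 ± 0.00927 RPKM under control siRNA to 5.30 ± 0.0297 RPKM (SD, n = 2 each; log2 change 2.43, limma adjusted p = 6.04e-08) and Gata2 from 1.27 ± 0.00192 RPKM under control siRNA to 4.0 ± 0.303 RPKM (SD, n = 2 each; log2 change 1.35, adjusted p = 1.80e-06); these are trophectoderm and blood factors. Gata1, the erythroid factor, rose by less (log2 change 0.42, limma adjusted p = 0.00373), and without Hnrnpk siRNA replicate 1 it was not called. The GATA cofactor Zfpm1 fell (log2 change -0.92, limma adjusted p = 6.94e-05).

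Sox18, the remaining SOXF gene and an endothelial factor, measured 3.09 and 3.02 RPKM under control siRNA against 0.994 and 1.19 RPKM under Hnrnpk siRNA. It fell (log2 change -1.16, SE 0.0958, limma adjusted p = 6.18e-06), so that the SOXF gene highest under control siRNA was below Sox7 after Hnrnpk siRNA. Foxa1, the forkhead paralog of Foxa2, was at 0.362 and 0.263 RPKM and at 2.83 and 3.02 RPKM. It rose (log2 change 2.08, SE 0.10, limma adjusted p = 2.98e-07) and was several times above Foxa2 in each library. Like Pdgfra, it reached the level for testing only through the Hnrnpk siRNA libraries. Foxa3 was not called (log2 change -0.22, limma adjusted p = 0.0548).

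The ligands of PDGFRA changed beside the receptor. Pdgfa, the ligand that PDGFRA binds in the early embryo, measured 11.3 and 12.3 RPKM under control siRNA against 45.5 and 45.7 RPKM under Hnrnpk siRNA. It rose (log2 change 1.91, SE 0.0679, limma adjusted p = 6.11e-08), as did Pdgfc (log2 change 0.74, limma adjusted p = 0.000141). Pdgfb fell (log2 change -0.38, limma adjusted p = 0.00356), and Pdgfd, below the level for testing, was listed at 0.235 and 0.106 RPKM on average. The other receptor, Pdgfrb, was not called (log2 change 0.14, limma adjusted p = 0.238). Per length, Pdgfa stood 59.0- and 82.8-fold above Pdgfra in the control libraries and 54.5- and 47.5-fold after Hnrnpk siRNA, so the ligand transcript remained far more abundant than the receptor transcript. Protein was not measured.

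Around the cubilin receptor, Lrp2 (megalin, the co-receptor of cubilin) measured 2.39 and 3.51 RPKM under control siRNA against 7.62 and 7.17 RPKM under Hnrnpk siRNA. It rose (log2 change 1.21, SE 0.135, limma adjusted p = 3.77e-05). Lrpap1, the chaperone of LRP receptors, rose from 17.7 ± 1.14 RPKM under control siRNA to 93.4 ± 6.93 RPKM (SD, n = 2 each; log2 change 2.37, limma adjusted p = 3.35e-08). Amn was the part of this receptor whose level did not differ beyond the replicate spread. Dab1, the paralog of Dab2, was not called (log2 change 0.041, limma adjusted p = 0.708).

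**Figure D4:**
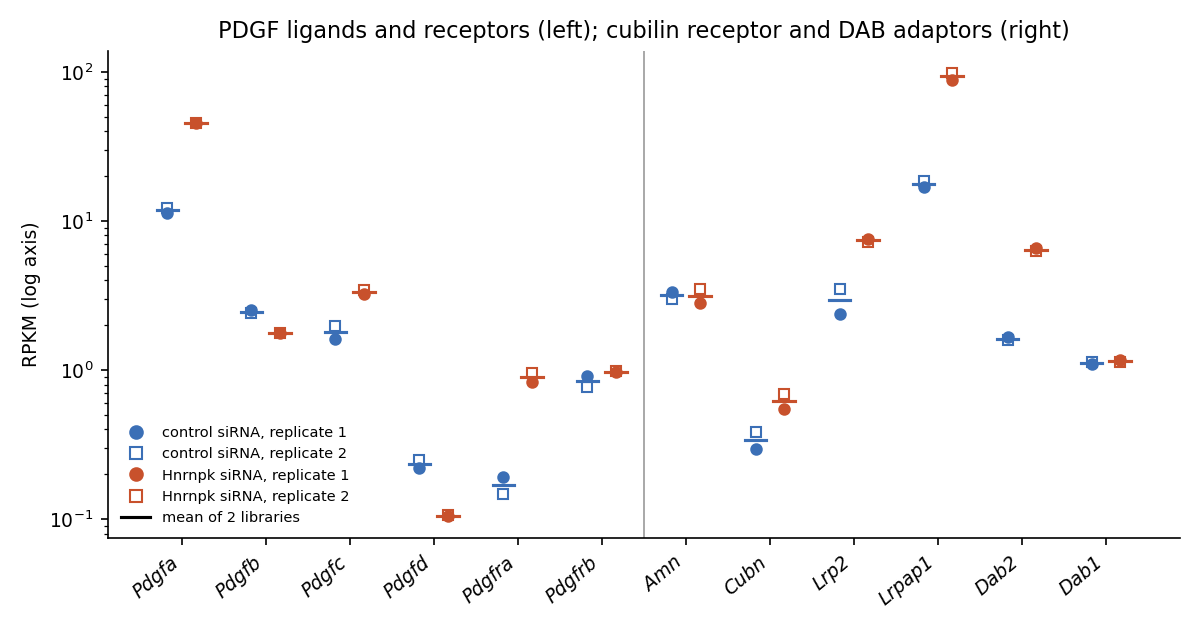
RPKM on a log axis in each library of the PDGF ligands and receptors (left of the line) and of the cubilin receptor genes with Dab2 and Dab1 (right), with control siRNA in blue, Hnrnpk siRNA in red and bars for the mean of 2 libraries. Pdgfa, Pdgfc, Pdgfra, Lrp2, Lrpap1 and Dab2 are higher after Hnrnpk siRNA, Pdgfb is lower, and Amn overlaps.

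The derivatives of primitive endoderm were read from lists of their own. Of 22 visceral endoderm genes, 12 were tested, of which 5 rose and 3 fell (median log2 change 0.17), counts not far from the background of 32.2% higher and 35.0% lower over all genes tested. Some genes of secreted plasma proteins that mark the differentiated layer were at or near 0, while others (Trf, Rbp4, Apom and Apoc2) were high enough to be tested. Afp was at 0.0155 and 0.00977 RPKM on average, Ttr at 0.00656 and 0.00749 RPKM, and Apoa4 and Fgb were listed at 0 in all libraries. Eomes, a T-box factor, rose from 1.31 ± 0.324 RPKM under control siRNA to 5.16 ± 0.230 RPKM (SD, n = 2 each, a log2 change of 1.65) and the Wnt antagonist Dkk1 from 0.0478 ± 0.0160 RPKM under control siRNA to 1.15 ± 0.157 RPKM (SD, n = 2 each; log2 change 1.59), both at a limma adjusted p of at most 2.84e-06. Dkk1 reached the level for testing only through the Hnrnpk siRNA libraries, so it had to differ to be tested. Hhex, a homeobox factor of anterior visceral endoderm, and Spink3 rose with log2 changes of 0.68 and 1.09. Those that fell were Rbp4 (log2 change -1.05), Trf (-0.91) and Tdh (-0.33), the carriers of retinol and iron and threonine dehydrogenase.

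Of 18 parietal endoderm genes, 16 were tested, of which 10 rose and 3 fell (median log2 change 0.48). Over all genes tested, 32.2% were called higher and 35.0% lower. Snai1, the zinc finger repressor of epithelial genes, rose from 2.15 ± 0.0315 RPKM under control siRNA to 18.0 ± 0.310 RPKM (SD, n = 2 each; log2 change 2.80, limma adjusted p = 2.04e-08). The basement membrane genes split: Col4a1 and Col4a2 rose with log2 changes of 1.72 and 1.62 and Nid1 with 1.07, while the laminin genes Lamc1 and Lamb1 fell with log2 changes of -0.60 and -0.44. Lama1, the remaining chain of laminin-111, was not called (log2 change 0.069, limma adjusted p = 0.423). Plat had a log2 change of -0.28 (limma adjusted p = 0.0324) that was not called without a filter (adjusted p = 0.0614), under quantile normalization (0.0629) or when control replicate 1 or either Hnrnpk siRNA library was left out (0.0740 to 0.225).

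On the side of the epiblast, 5 of 12 regulators rose and 2 fell (median log2 change 0.15), the first share being again not far from the 32.2% of all genes tested. Nanog, the antagonist of Gata6, measured 204 and 190 RPKM under control siRNA against 353 and 342 RPKM under Hnrnpk siRNA. It rose as well (log2 change 0.82, limma adjusted p = 6.56e-06), so both sides of that pair were higher. The ratio of Nanog to Gata6 RPKM was 283 and 337 in the control libraries and 25.8 and 24.2 after Hnrnpk siRNA. Tbx3, a T-box factor of naive cells that also acts in primitive endoderm, rose from 15.6 ± 1.11 RPKM under control siRNA to 62.6 ± 2.06 RPKM (SD, n = 2 each; log2 change 1.97, limma adjusted p = 6.11e-08). Sox2 fell (log2 change -0.53, limma adjusted p = 0.000337) and Pou5f1 was not called (log2 change -0.15, limma adjusted p = 0.137). Klf5, counted among the 5 that rose, was close to the threshold (log2 change 0.16, limma adjusted p = 0.0484). It was not called without a filter (adjusted p = 0.0639), under quantile normalization (0.549) or under 2 other variance models (0.0769 and 0.0525). With any 1 library left out its log2 change was 0.14 to 0.17, and it was not called. Without Hnrnpk siRNA replicate 2 the number that rose was 3 in place of 5, Klf2 and Klf5 no longer being called, and Pou5f1 was called lower (adjusted p = 0.0188), as it was under quantile normalization (0.0109).

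The signal that favours primitive endoderm was read from 21 genes of the FGF and ERK pathway, of which 19 were tested, 5 rose and 8 fell (median log2 change -0.10), again near the background of 32.2% and 35.0%. The ligand Fgf4 fell from 56.1 ± 4.32 RPKM under control siRNA to 45.3 ± 0.208 RPKM (SD, n = 2 each; log2 change -0.30, limma adjusted p = 0.00347). Fgfr1, the main receptor in these cells, was listed under 2 identifiers, with log2 changes of -0.23 (limma adjusted p = 0.0133) and -0.10 (adjusted p = 0.211). The count of 8 uses the latter, which has the higher mean, and would be 9 with the former. Fgfr2 was not called (log2 change 0.10, adjusted p = 0.269). Fgfr3 and Fgfr4 rose with log2 changes of 0.57 and 0.71. Feedback genes went both ways: Spry4 and Spred1 fell with log2 changes of -0.57 and -0.60, and Dusp4 and Spry2 rose with 0.54 and 0.31. The ERK1 gene Mapk3 fell (log2 change -0.69, limma adjusted p = 1.04e-05), as did the immediate-early gene Egr1 (log2 change -2.25, adjusted p = 9.04e-08).

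**Figure D5:**
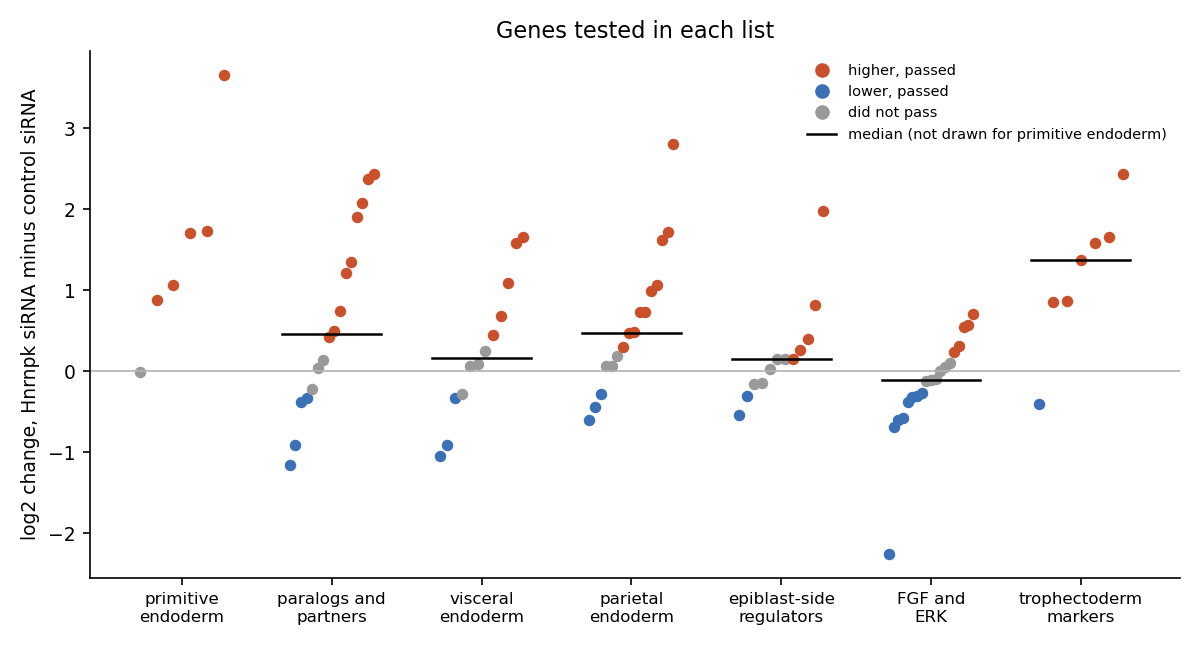
Log2 change, Hnrnpk siRNA minus control siRNA, of the genes tested in each list, in red where higher and called, in blue where lower and called and in grey where not called; black lines are medians. Trophectoderm markers lie between -0.40 and 2.43, parietal endoderm genes between -0.60 and 2.80, and the FGF and ERK genes between -2.25 and 0.71.

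Several of the 10 genes are also expressed by other cell types, and the markers of those cells were read in the same libraries. The counts of each marker list can be set beside the 32.2% called higher and 35.0% called lower among all genes tested. Of 10 trophectoderm markers 7 were tested, of which 6 rose and 1 fell (Gata3, Krt7 and Eomes also stand in other lists here). The one that fell was Tfap2c, listed in the table under its older symbol Tcfap2c (log2 change -0.40, limma adjusted p = 0.00419). The summed RPKM of the 10 was 79.8 and 75.6 in the control libraries and 114.6 and 118.8 after Hnrnpk siRNA. Of the defining markers below the level for testing, Cdx2 was at 0.234 and 0.740 RPKM on average, whereas Elf5 was near 0 in both groups (0.107 and 0.0657 RPKM on average), lower after Hnrnpk siRNA. Of 10 markers of primitive streak, mesoderm and definitive endoderm, 6 were tested, 4 rose and 1 fell, and their sum went from 8.01 and 6.89 to 14.5 and 14.5 RPKM. Of the 4, T and Gsc were not called without Hnrnpk siRNA replicate 1 (adjusted p = 0.0756 and 0.0713), which left 2. T was not called either without a filter (0.114), without control replicate 1 (0.0654) or without Hnrnpk siRNA replicate 2 (0.0583). Foxa1 and Gsc reached the level for testing only through the Hnrnpk siRNA libraries. Eomes, Foxa1, Cer1 and Lhx1 of this list also stand in other lists here. Much of the rise of this sum was that of Eomes (1.31 and 5.16 RPKM on average) and Foxa1 (0.313 and 2.93 RPKM). These sums moved with the primitive endoderm genes, and their part in those rises was not tested. Cer1, which marks definitive and anterior visceral endoderm, was near 0 (0.0243 and 0.00655 RPKM on average), and Mixl1, of the primitive streak, fell (log2 change -0.73, limma adjusted p = 0.000188). Fibroblast markers, of interest for Pdgfra, summed to 10.4 and 8.79 RPKM in the control libraries and to 5.05 and 5.31 RPKM after Hnrnpk siRNA. Most of the control sums was Thy1, at 6.90 and 5.20 RPKM under control siRNA and 2.22 and 2.28 RPKM after Hnrnpk siRNA. Of the 3 tested markers, 2 (Thy1 and Col1a1) were called lower and Pdgfrb was not called, and Col3a1, Dcn and Postn were near 0 in all libraries. Of the 5 neural markers measured, 2 were tested and 2 fell, with sums of 4.51 and 5.07 RPKM in the control libraries and 2.583 and 2.498 RPKM after Hnrnpk siRNA.

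The genes whose pattern lay nearest to that of Gata6 were sought among all genes tested, by the Euclidean distance over the 4 libraries between log2(RPKM + 0.5) values centred on the control mean. They were Gm8300 (distance 0.152), Gm2016 (0.223), Zscan4c (0.322), Nkx2-9 (0.359) and Dub1a (0.431). None of the 10 primitive endoderm genes was among them. Their log2 changes ran from 3.41 for Dub1a to 3.87 for Zscan4c, beside 3.66 for Gata6. With 4 libraries this likeness says only that the size of the change on the log2(RPKM + 0.5) scale and the spread were alike. Gm8300, Gm2016, Zscan4c and Dub1a reached the level for testing only through the Hnrnpk siRNA libraries, so they had to differ to be tested. At control means of 0.0612 to 0.111 RPKM, their likeness to Gata6 leans on the 0.5 RPKM added. For example, Gm8300 went from 0.108 to 7.545 RPKM on average, a larger ratio than that of Gata6 (0.643 to 13.9 RPKM). Zscan4c, Gm2016 and Gm8300 match other genes at 95% identity over 100%, 96.0% and 23.2% of the transcript. The values of these copies are therefore uncertain. No such match was found for Gata6, Nkx2-9 or Dub1a.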

How the data were processed

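RPKM per gene and library were deposited by the authors in 1 table, with replicates not pooled. Reads were handled with BWA and SAMtools on mm9, per the submitters' processing notes; the counting tool, annotation release, strand setting and treatment of reads with several matches are not given in these sources. Positions, exonic lengths and overlaps were taken by Ensembl identifier from GENCODE M21 on GRCm38 (20551 of 22138 identifiers found), a later build; 1 list gene with an older symbol was found by identifier. Members and lists were chosen with earlier results of these data known. The genes named are the 10 members, Hnrnpk, genes of the partner list (some of its genes are counted but not reported singly here), up to 4 called genes in each direction of each further list by lowest p, 6 fixed genes (Nanog, Sox2, Pou5f1, Fgf4, Fgfr1, Fgfr2) and the 5 genes nearest to Gata6; marker genes and single genes near 0 were named after their values were seen.

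Values of genes whose mean reached 0.5 RPKM were fitted as log2(RPKM + 0.5) with limma 3.58.1 in R 4.3.3 (mean-variance trend, two-sided, Benjamini-Hochberg over 12486 genes, 7.47 prior degrees of freedom), a procedure tested on simulated data: with 200 of 12486 genes changed, it recovered 92% of log2 changes of size 0.5 and 100% of size 1, and 12 of its 204 calls were false. The simulated noise was independent between libraries and drawn from the trend and prior fitted here. Far fewer genes were changed in it than the 67.2% called in the data, so its rates need not hold for these calls. A change on the log2(RPKM + 0.5) scale understates that of low genes. Whole reads were not recovered, so no count model was used; relative depth came from the commonest step among low genes with 1 exon. With 2 libraries a group, each call rests on the variance pooled over genes. Matches between transcripts were sought with BLAST 2.17.0. Alternatives were another added constant, another filter, 2 scalings, 2 variance models, a replicate block and leaving out each library.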

Additional observations from a re-analysis of the deposited data

How the results depend on the processing

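The 5 primitive endoderm genes that rose were called with the same sign under every alternative that tested them, Gata6 with a log2 change of 3.18 to 4.25 and a highest adjusted p of 0.000438, and Gata4 with a highest adjusted p of 0.0106. Amn was called under none (-0.14 to 0.12). Testing without a filter on low values called 9 primitive endoderm genes and 8 visceral endoderm genes higher (25.3% of all 18814 genes) and 4 visceral endoderm genes lower; with 0.1 RPKM added as well, an alternative chosen after seeing the data, 8 were called higher, 7 of them by at least 2-fold, and 8 visceral endoderm genes. The number of epiblast-side regulators called higher was 3 to 5 when 1 library was left out. With a mean of at least 1 RPKM required, Pdgfra was not tested. With the replicate number as a block, 5 primitive endoderm genes were called higher and 0 lower, as without it; same-numbered libraries showed no shared deviation (r = 0.0267 over 12486 genes), so they share only a number. No called gene of the lists changed sign. Leaving out a library leaves a group with 1 library, which is then assumed to vary like the other group. Depth limits Foxa2 most, with about 10 reads or read pairs in control replicate 2.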
